A study of Mus musculus with 19 samples.

Results

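Fkbp5 and Gpd1 are 2 mouse genes known to respond to glucocorticoid hormones, and their transcript levels were followed in the forebrain after sleep deprivation. They were chosen with earlier results of these data known, and their rows were taken by symbol. Each was represented by the 1 probe set whose only gene symbol was Fkbp5 (17342868) or Gpd1 (17321626). Thus 2 of the 8751 deposited probe sets are described here, from a series described as incomplete. Forebrain RNA was hybridised to Affymetrix Mouse Gene 2.0 ST arrays, and the deposited values were log2 expression per probe set. The mice were EphA4 knockouts, which lack a receptor tyrosine kinase that binds ephrins, and wild-type littermates, all on the strain background given as Mixed BL6/10 and housed with 12 h of light in alternation with 12 h of dark. The 19 arrays held 5 sleep-deprived knockout samples, 4 undisturbed knockout controls, 6 sleep-deprived wild-type samples and 4 undisturbed wild-type controls, and sleep deprivation lasted 6 h in both genotypes. In the sample names KO stands for the EphA4 knockout and WT for wild type. The sources used here do not give the age or sex of the mice, the kind of knockout allele or the time of day of sampling.

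Fkbp5 encodes FKBP51, a co-chaperone that sits with Hsp90 in the unliganded glucocorticoid receptor complex and lowers the receptor's affinity for hormone. The hormone-bound receptor in turn raises transcription of Fkbp5, which forms a short negative feedback loop on stress hormone signalling. Gpd1 encodes the cytosolic glycerol 3-phosphate dehydrogenase, which uses NADH to reduce dihydroxyacetone phosphate to glycerol 3-phosphate, a precursor of glycerolipids and a carrier of reducing power to mitochondria. In rat brain this enzyme is found mainly in oligodendrocytes, where glucocorticoids induce it.

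The start region of Fkbp5 is shown because the gene's regulation by the hormone receptor is what it is best known for, and it gives the proximal sequence in which the receptor's motif was searched. It was taken from RefSeq (GRCm38.p6, chr17:28486100-28486399, minus strand) and runs from 250 bases before the annotated start through the first 50 bases of the transcript. Capitals mark matches on either strand to the E-box CACGTG, the CCAAT box and the GC box GGGCGG.
Fkbp5 start region: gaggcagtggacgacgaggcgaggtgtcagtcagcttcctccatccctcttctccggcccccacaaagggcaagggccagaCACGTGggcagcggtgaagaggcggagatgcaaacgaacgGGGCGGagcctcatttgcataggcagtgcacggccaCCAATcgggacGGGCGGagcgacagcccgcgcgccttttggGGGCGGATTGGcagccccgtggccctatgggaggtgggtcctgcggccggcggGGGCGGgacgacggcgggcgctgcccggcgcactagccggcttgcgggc
The window was rich in G and C, at 70.7% of its bases, against a median of 52.7% over the 32851 RefSeq start regions of the same length. It held 4 GC boxes, 2 CCAAT boxes and 1 E-box, with no overlap between them, and 35.7%, 37.4% and 7.15% of all start regions held at least 1 match to these motifs in the same order. Neither the palindromic glucocorticoid response element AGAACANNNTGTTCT nor its single arm AGAACA was found on either strand, and these were present in 0.00913% and 19.0% of all start regions. The letters TATAAA and the heat shock element core GAANNTTC were not found in the window either, and 13.6% and 7.86% of start regions held them. These matches describe the letters of this window alone, and receptor binding further from the start was not examined.

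The deposited values ran from 2.18 to 14.2, the array medians from 5.90 to 6.07, and arrays correlated with each other at 0.981 to 0.993 over all probe sets. No probe set carried the symbol Epha4 alone, so the genotype labels were not checked by its level. The labelled tissue could not be checked either, since 1 of 116 cell type and forebrain marker genes was measured under a symbol of its own. That marker was Slc32a1, the vesicular GABA transporter of inhibitory neurons, with a mean log2 level between 7.31 and 7.33 in the 4 groups. The labels do not say that each sample came from its own mouse, so the p-values rest on the spread between these samples, which may in part be technical. In bulk tissue, fewer cells of a type and less RNA per cell cannot be told apart.

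Fkbp5 rose after 6 h of sleep deprivation. Its log2 level was 8.31, 8.32, 8.34, 7.91 and 8.07 in sleep-deprived knockout samples 1 to 5, against 7.65, 7.75, 7.61 and 7.78 in knockout controls 1 to 4. Every sleep-deprived knockout sample lay above every knockout control, with a gap of 0.13 between the closest 2, which held for 3.09% of all probe sets. Among the sleep-deprived knockouts, samples 1, 2 and 3 lay within 0.03 of each other on the log2 scale at the top, and samples 4 and 5 lay lower. The log2 level in wild-type samples was 7.97, 8.13, 7.95, 7.79, 8.13 and 7.94 after sleep deprivation, against 7.77, 7.48, 7.72 and 7.59 in controls. These groups did not overlap either, although the gap was 0.02, between sleep-deprived sample 4 and control sample 1, and 0.891% of probe sets met this in wild type.

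**Figure D1:**
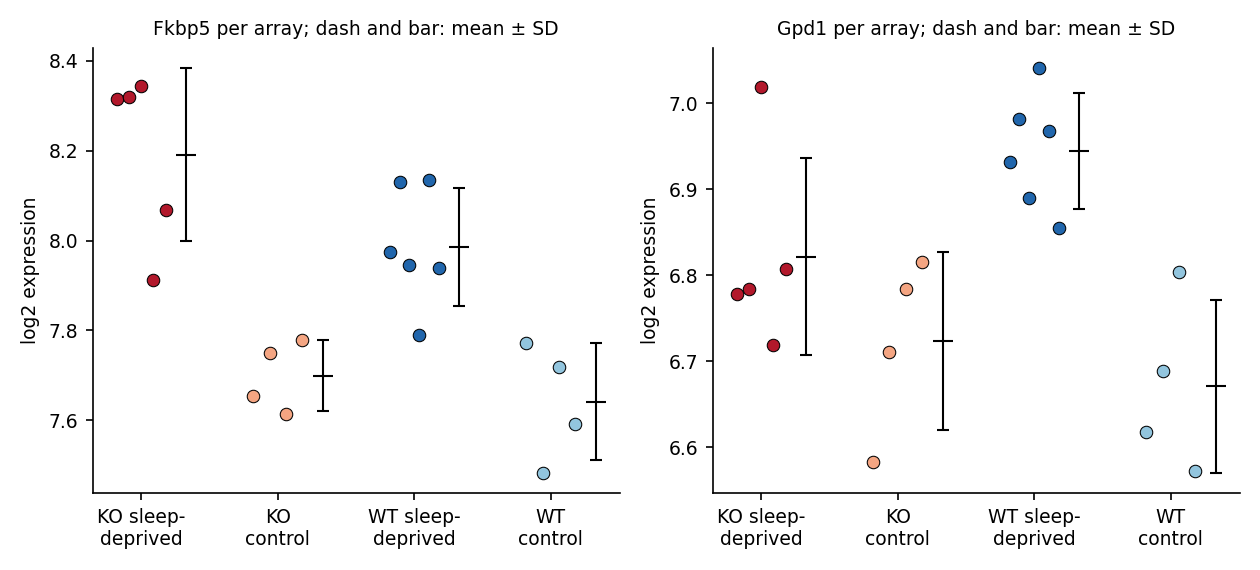
Log2 expression of Fkbp5 (left) and Gpd1 (right) on each of the 19 arrays by group, with the group mean ± SD beside the points (n = 5, 4, 6 and 4 from left to right). Every sleep-deprived sample lies above every control of its genotype for Fkbp5, and for Gpd1 this holds in wild type, while the knockout groups overlap.

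Averaged over both genotypes, Fkbp5 was 1.34-fold higher after sleep deprivation (log2 difference 0.42 ± 0.07, SE; 95% interval 0.28 to 0.56; limma adjusted p = 0.0065). Only 18 of 8751 probe sets rose in this comparison (0.206%), and by its p Fkbp5 ranked 5 of 8751 and 1 of the 1308 probe sets with a single symbol. An exact two-sided permutation of the sleep labels within each genotype gave p = 0.000113 (3 of 26460 arrangements, unadjusted). Because Fkbp5 was chosen with earlier results of these data known, this p is no independent support of the limma call. Fkbp5 was also 1 of 10 probe sets (0.114%) in which every sleep-deprived sample exceeded every control in both genotypes. Of these 10, 2 had a single symbol, Fkbp5 and Pdzd2, which encodes a PDZ-domain protein (0.153% of the 1308). The averaged call for Fkbp5 remained in all 19 fits that each leave out 1 array, with adjusted p from 0.0066 to 0.023 in limma. Array medians ran from 5.94 to 6.07 in sleep-deprived knockouts and from 5.93 to 6.04 in knockout controls, and from 5.90 to 6.04 in sleep-deprived wild type and from 5.92 to 5.96 in wild-type controls. After median centring of the arrays, the averaged Fkbp5 difference was 0.40 (limma adjusted p = 0.036).

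Within each genotype the change in Fkbp5 had the same direction. In the knockout the mean log2 level was 8.19 ± 0.19 in sleep-deprived samples (SD, n = 5) and 7.70 ± 0.08 in controls (SD, n = 4), a 1.41-fold rise (log2 difference 0.49 ± 0.10, SE; 95% interval 0.29 to 0.69; limma adjusted p = 0.044). In this comparison 22 of 8751 probe sets rose (0.251%). The exact two-sided permutation test gave p = 0.0159 (2 of 126 arrangements). In wild type the mean log2 level was 7.99 ± 0.13 in sleep-deprived samples (SD, n = 6) and 7.64 ± 0.13 in controls (SD, n = 4), a difference of 0.34 ± 0.09 (log2, SE; 95% interval 0.15 to 0.54) that did not pass over all probe sets (limma adjusted p = 0.30). No probe set passed in wild type (0% of 8751), with 7.80% at an unadjusted p under 0.05, and by its p Fkbp5 ranked 43 of 8751. The exact permutation test on Fkbp5 alone gave p = 0.00476 in wild type, the smallest that 210 arrangements allow. This test and that in the knockout are among 10 such tests on the 2 genes, and none was adjusted. Both are no independent support either, since the gene was chosen with earlier results of these data known.

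The call for Fkbp5 within the knockout was close to the threshold of 0.05 and was lost on leaving out any of 11 arrays. Without sleep-deprived knockout sample 1, 2 or 3 the adjusted p was 0.080, 0.091 and 0.089, and without knockout control 1, 2, 3 or 4 it was 0.12, 0.086, 0.11 and 0.064 in limma. Without sleep-deprived wild-type sample 6 it was 0.051, and without wild-type control 1, 3 or 4 it was 0.054, 0.056 and 0.060. The log2 difference itself stayed between 0.45 and 0.56 on leaving out each array in turn. It was largest without sleep-deprived knockout sample 4, the lowest of its group, where the adjusted p was 0.014. The call was also lost with median centring (adjusted p = 0.068) and with the knockout arrays fitted alone (adjusted p = 0.14).

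**Figure D2:**
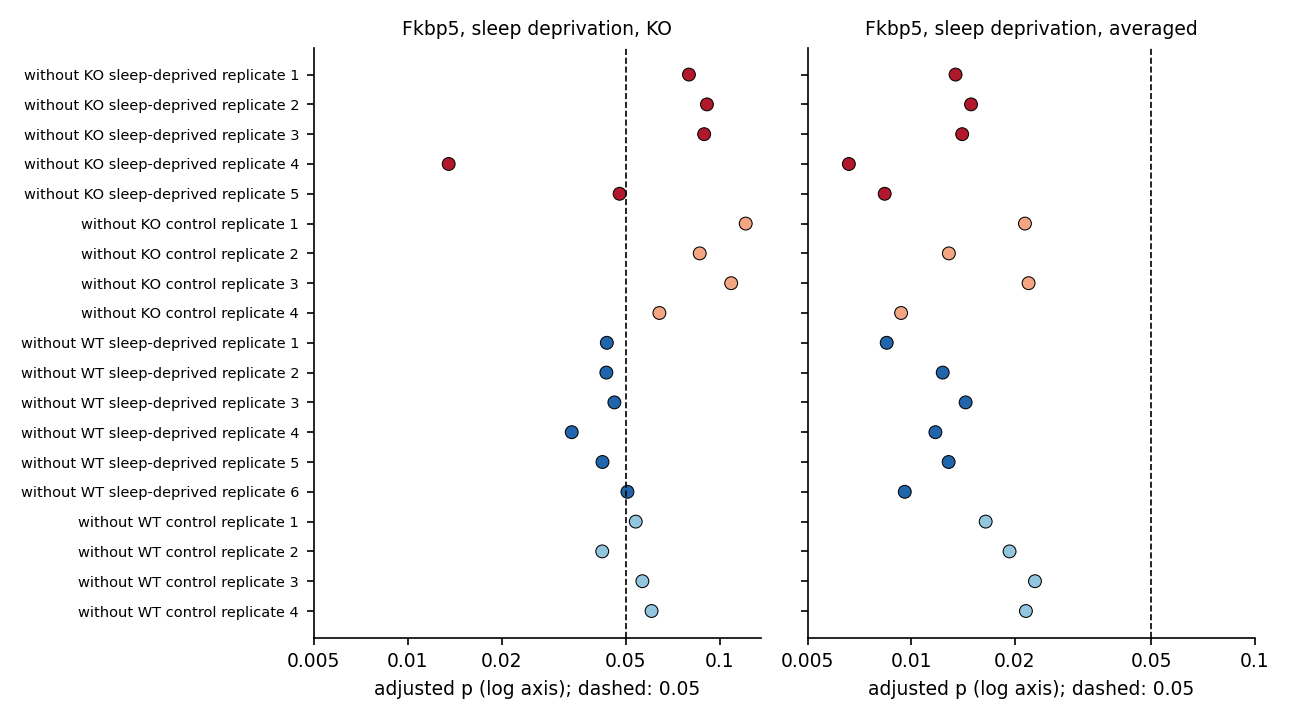
Adjusted p of Fkbp5 in limma (log axis) in the 19 fits without 1 array each, for sleep deprivation in the knockout (left) and averaged over genotypes (right), coloured by the group of the array left out. In the knockout 11 of 19 points lie right of the dashed threshold of 0.05, and for the average all 19 lie left of it.

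Gpd1 did not pass over all probe sets in any comparison, and its sleep-deprived and control samples were separate in wild type and overlapped in the knockout. In sleep-deprived knockout samples 1 to 5 its log2 level was 6.78, 6.78, 7.02, 6.72 and 6.81, against 6.58, 6.71, 6.78 and 6.81 in knockout controls. Sleep-deprived sample 3 lay apart at the top of its group. In wild type the log2 level was 6.93, 6.98, 6.89, 7.04, 6.97 and 6.86 after sleep deprivation, against 6.62, 6.69, 6.80 and 6.57 in controls. Every sleep-deprived wild-type sample lay above every wild-type control, with a gap of 0.05, which held for 78 of 8751 probe sets (0.891%).

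In wild type, mean Gpd1 was 6.94 ± 0.07 in sleep-deprived samples (log2, SD, n = 6) and 6.67 ± 0.10 in controls (SD, n = 4). The difference was 0.27 ± 0.07 on the log2 scale (SE; 95% interval 0.12 to 0.42), or 1.21-fold, with a limma adjusted p = 0.30. By its p Gpd1 ranked 31 of 8751 in that comparison, and 5 of the 1308 probe sets with a single symbol. The exact permutation test on Gpd1 alone gave p = 0.00476, again the smallest possible and unadjusted. In the knockout, mean Gpd1 was 6.82 ± 0.11 in sleep-deprived samples (log2, SD, n = 5) and 6.72 ± 0.10 in controls (SD, n = 4), a difference of 0.10 ± 0.07 (SE; 95% interval -0.06 to 0.25; limma adjusted p = 0.65; exact permutation p = 0.254). The knockout difference was 0.05 without sleep-deprived sample 3 and 0.05 without control sample 1. Averaged over genotypes, Gpd1 was higher by 0.19 ± 0.05 (log2, SE, 95% interval 0.08 to 0.29), or 1.14-fold. This missed the threshold over all probe sets (limma adjusted p = 0.20). The exact permutation test on the gene alone gave p = 0.0011 (29 of 26460 arrangements, unadjusted). Because Gpd1 was chosen with earlier results of these data known, its exact permutation p-values are no independent support of a rise.

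The interaction compares the sleep deprivation difference of the knockout with that of wild type, and neither gene passed. For Fkbp5 the knockout response exceeded the wild-type response by 0.15 ± 0.13 on the log2 scale (SE; 95% interval -0.13 to 0.43; limma adjusted p = 0.69). For Gpd1 the knockout response minus the wild-type response was -0.18 ± 0.10 (SE; 95% interval -0.39 to 0.04; limma adjusted p = 0.52). Both intervals contain 0, and each also contains differences as large as 0.39 in size, so the data do not show that the genotypes responded alike. Of all probe sets 0.0686% passed for the interaction.

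**Figure D3:**
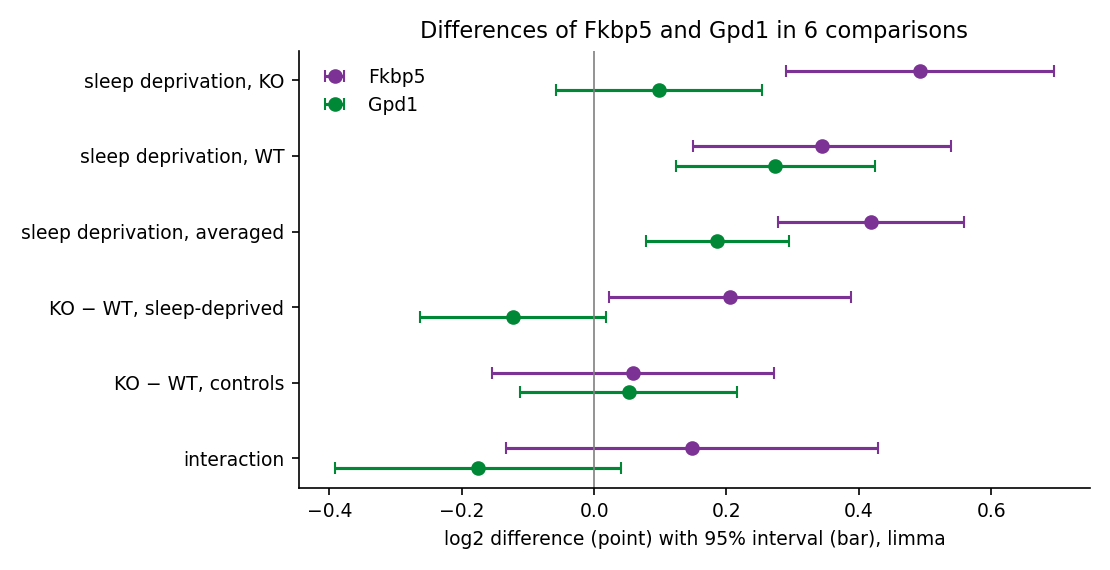
Log2 differences of Fkbp5 and Gpd1 (points) with their 95% intervals (bars) from limma in 6 comparisons. Both genes lie right of 0 for sleep deprivation averaged over genotypes, where Fkbp5 alone passed the threshold over all probe sets. After sleep deprivation the knockout minus wild-type difference is positive for Fkbp5 and negative for Gpd1. Neither of these passed, and the interval of Gpd1 contains 0.

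Compared directly, the genotypes did not differ past the threshold for either gene. After sleep deprivation Fkbp5 was higher in the knockout by 0.21 ± 0.09 (log2, SE; 95% interval 0.02 to 0.39), with an unadjusted p = 0.029 and a limma adjusted p = 0.26. Gpd1 was lower in sleep-deprived knockouts, with a log2 difference of -0.12 ± 0.07 (SE; 95% interval -0.26 to 0.02; limma adjusted p = 0.40). The groups overlapped for both genes, and exact permutation tests gave p = 0.0671 for Fkbp5 and p = 0.0606 for Gpd1. In that comparison 1.68% of probe sets passed and 15.4% had an unadjusted p under 0.05, so the unadjusted p of Fkbp5 is a common one among all probe sets. In undisturbed mice the knockout minus wild-type difference was 0.06 ± 0.10 for Fkbp5 (log2, SE; 95% interval -0.16 to 0.27; limma adjusted p = 0.95) and 0.05 ± 0.08 for Gpd1 (SE; 95% interval -0.11 to 0.22; limma adjusted p = 0.95). No probe set passed among the controls (0% of 8751, with 5.44% at an unadjusted p under 0.05).

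The order of the 4 group means differed between the genes. Mean Fkbp5 was highest in sleep-deprived knockouts, then in sleep-deprived wild type, knockout controls and wild-type controls. Neighbours within each condition overlapped, while the lowest sleep-deprived wild-type sample lay 0.01 above the highest knockout control. Mean Gpd1 was highest in sleep-deprived wild type, then in sleep-deprived knockouts, knockout controls and wild-type controls, and all 3 pairs of neighbours overlapped. The residual SD around the group means was 0.14 for Fkbp5 and 0.10 for Gpd1 on the log2 scale, against a median of 0.17 over all probe sets, and 34.5% of probe sets had a lower residual SD than Fkbp5 and 9.35% a lower one than Gpd1. By group, the SD of Fkbp5 was 0.19 in sleep-deprived knockouts, 0.08 in knockout controls, 0.13 in sleep-deprived wild type and 0.13 in wild-type controls. These SDs of single groups were not set against those of other probe sets.

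Whether the 2 transcripts varied together was asked over the 19 samples. Pooled over groups, their log2 levels correlated with a Pearson r of 0.55 (permutation p = 0.015, adjusted over 4 relations p = 0.030) and a Spearman coefficient of 0.63 (permutation p = 0.0047, adjusted p = 0.019). The pooled value mixes the shared difference between sleep-deprived and control groups with variation within groups. Its permutation moved values across groups, so the pooled p-values cannot tell these 2 apart. On deviations from the group means r was 0.29 (permutation p = 0.30) and the Spearman coefficient 0.31 (permutation p = 0.23), both with an adjusted p = 0.30. Without the 2 samples whose Fkbp5 level lay farthest from its median, pooled r was 0.44. On deviations r was 0.35 without a different pair, the 2 samples with the most extreme Fkbp5 deviations. These were sleep-deprived sample 4 of each genotype. In the 6 sleep-deprived wild-type samples, the 1 group of that size, r was -0.08, and sample 4 had both the lowest Fkbp5 and the highest Gpd1 of that group.

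**Figure D4:**
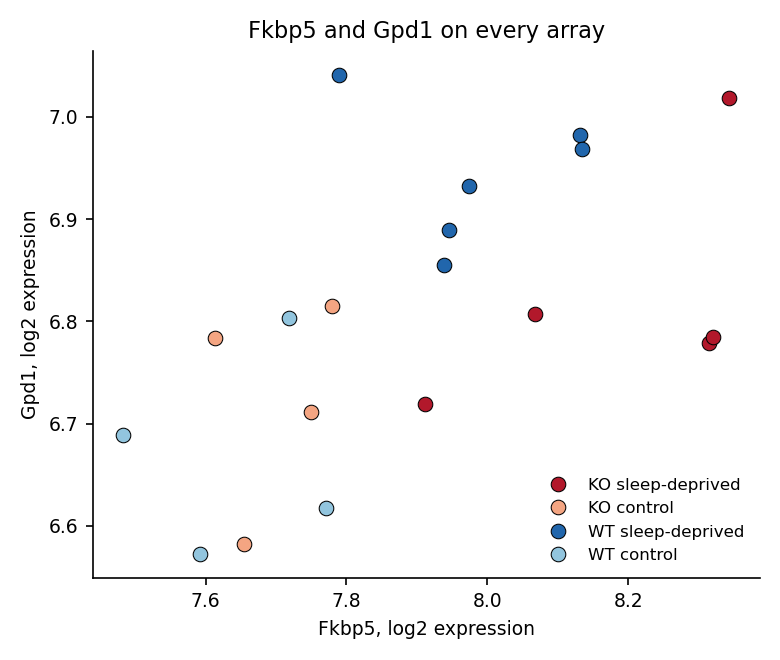
Log2 expression of Gpd1 against that of Fkbp5 on the 19 arrays, coloured by group. Controls of both genotypes lie at the lower left. Sleep-deprived knockout samples reach the highest Fkbp5, and sleep-deprived wild-type samples lie higher in Gpd1 than all but 1 of them.

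Among 758 other genes with a single symbol, left after microRNA, small nucleolar RNA, predicted and unnamed-clone genes were set aside, the profiles most like Fkbp5 over the 19 arrays were those of Pdzd2 (Pearson r = 0.71), the histone gene H4c9 (0.68), Lyrm4 (0.67), which takes part in iron-sulfur cluster assembly, the pseudogene Eif1-ps3 (0.66) and the deubiquitinase gene Josd1 (0.66). The profiles most like Gpd1 were those of Ormdl2 (Pearson r = 0.76), a regulator of sphingolipid synthesis, Wdr78 (0.71), which encodes an axonemal dynein component, Arhgap26 (0.70), Sez6l2 (0.70), a neuronal membrane protein, and Pdzd2 (0.69). Pdzd2 stood on both lists. Gpd1 itself ranked 16 among the genes most like Fkbp5, and Fkbp5 ranked 13 among those most like Gpd1. These correlations are descriptions over arrays that share the group differences. On deviations from the group means the r of the same 5 genes ran from 0.21 to 0.42 for Fkbp5 and from 0.07 to 0.51 for Gpd1.

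Few other genes of these pathways were measured under a symbol of their own: 8 of 171 genes on 7 lists, Fkbp5 and Gpd1 included. Measured here means having such a row in the deposited values, which are described as incomplete, and does not describe the array itself. Of 22 genes for corticosteroid receptors and their chaperoning, 4 were measured. Fkbp5 was the 1 that rose with sleep deprivation averaged over genotypes, in which 0.206% of all probe sets rose. All 4, Fkbp5 itself included, had a positive log2 difference, with a median of 0.16, against a median of 0.02 and 58.1% positive over all probe sets. The other members were Hspa8, Ptges3 and Nr3c2, with averaged differences of 0.20, 0.13 and 0.04, and none of them passed. Hspa8, the constitutive Hsp70 chaperone, which takes part in folding of the receptor, had a log2 difference of 0.20 ± 0.05 (SE, limma adjusted p = 0.15), with 0.25 in the knockout and 0.15 in wild type. On its other 2 probe sets the averaged difference was 0.20 and 0.12. Ptges3, the p23 co-chaperone that stabilises the Hsp90 complex, had a difference of 0.34 ± 0.13 in the knockout (SE, limma adjusted p = 0.31) and -0.09 ± 0.13 in wild type (SE, adjusted p = 0.88). The same value, 5.39, stood on 6 of the 19 arrays for Ptges3, whereas Fkbp5 and Gpd1 had 19 distinct values each. Nr3c2, the mineralocorticoid receptor, which also binds corticosterone, had a difference of -0.06 in the knockout and 0.15 in wild type, and 0.04 ± 0.05 when averaged (SE, limma adjusted p = 0.91).

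Of 40 glucocorticoid-induced genes, 3 were measured: Fkbp5, Gpd1 and Slc2a1, which encodes the glucose transporter GLUT1. Slc2a1 had a log2 difference of 0.11 ± 0.06 averaged over genotypes (SE, limma adjusted p = 0.66), with 0.18 in the knockout and 0.03 in wild type. Of these 3 members 1 rose, Fkbp5 itself, and 0 fell, against 0.206% of all probe sets that rose, and the median difference of 0.19 is the value of Gpd1, against 0.02 over all probe sets. For glycerol 3-phosphate and glycerolipid synthesis 2 of 26 genes were measured, and neither passed. Beside Gpd1 this was Mgll, the monoacylglycerol lipase, with an averaged difference of 0.03 ± 0.04 (SE, limma adjusted p = 0.94). For glycolysis and NADH shuttles 2 of 26 were measured, Gpd1 and Gapdh, the glycolytic dehydrogenase, whose brightest probe set had a difference of 0.03 ± 0.04 (SE, limma adjusted p = 0.92). Its dimmest probe set had 0.15 (adjusted p = 0.71), with 0.31 in the knockout (95% interval 0.05 to 0.58; unadjusted p = 0.024; limma adjusted p = 0.34) and -0.01 in wild type (adjusted p = 0.99). Fkbp5 was the 1 measured gene of 17 FKBP immunophilins and of 31 sleep deprivation responsive genes, and Nr3c2 the 1 of 23 stress axis genes, so nothing can be said of those groups. Slc32a1 was the 1 measured gene of 11 inhibitory neuron markers, with an averaged difference of -0.01 ± 0.06 (log2, SE, limma adjusted p = 0.99). No oligodendrocyte marker was among the measured genes (0 of 16), so whether the content of those cells moved with Gpd1 was not tested.

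**Figure D5:**
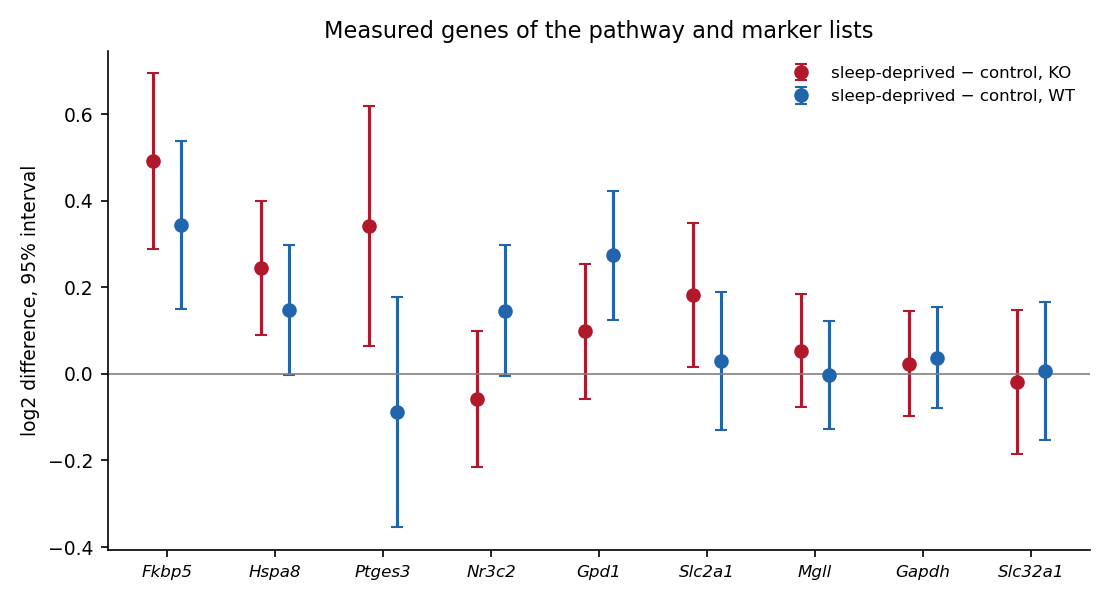
Log2 differences between sleep-deprived and control samples with 95% intervals in the knockout (red) and wild type (blue), for Fkbp5, Gpd1 and the other 7 measured genes of the pathway and marker lists. Fkbp5 has the largest difference in both genotypes among these 9 genes, and the intervals of Nr3c2, Mgll, Slc32a1 and the brightest Gapdh probe set contain 0 in both.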

How the data were processed

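The deposited table held log2 expression, 1 value per probe set and array; per the submitters' processing notes the authors used RMA, oligo and limma, with versions, order and genome build not given in the sources used here. The series is described as incomplete. Of 8751 probe sets, 1308 carried 1 gene symbol (1121 genes), 1178 several and 6265 none; 346 rows repeated an earlier one.

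Samples were grouped by their labels. Each row was tested with limma 3.58.1 (R 4.3.3) on all 19 arrays without covariates, with p-values adjusted over 8751 rows (Benjamini-Hochberg, threshold 0.05). Exact permutation tests and correlations (100000 resamples) used Python 3.11.15, and plots matplotlib 3.10.9. Scripts were tested on simulated data. A gene with several probe sets was represented by its brightest. Both genes matched the RefSeq gene table by identifier, and a start region was printed for Fkbp5. The named genes were Fkbp5, Gpd1, every measured gene of the lists and the 5 most similar profiles of each; Pdzd2 was also named among the probe sets without overlap after values were seen. The genes, lists and tests were chosen with earlier results of these data known. Alternatives covered the prior variance, array weights, rows tested, normalization, arrays fitted, a replicate block, the threshold and each array left out in turn. Arrays give no read depth; their number limits the precision.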

Additional observations from a re-analysis of the deposited data

How the results depend on the processing

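Over all alternatives run, the sleep deprivation difference of both genes stayed positive in the knockout, in wild type and averaged. For Fkbp5 in the knockout the call was lost with median centring (0.48, adjusted p = 0.068), with the knockout arrays fitted alone (0.49, adjusted p = 0.14), with the replicate number as a block (0.49, adjusted p = 0.105) and at a threshold of 0.01 (0.49). On leaving out each array it ranged from 0.45 to 0.56. Averaged over genotypes, Fkbp5 missed the threshold in 1 of 11 other settings, the replicate block (0.42, adjusted p = 0.056). Same-numbered arrays did not deviate together (25 pairs, r from -0.22 to 0.08; 6 of 50 best matches fell on the array's own number), so the numbers were not taken as pairs, and the block changed no other call of the 2 genes. No setting gave Gpd1 a call in limma; its averaged adjusted p was lowest, 0.072, with probe sets of 1 symbol alone and highest, 0.44, with median centring. With quantile normalization the exact permutation p of Gpd1 for genotype after sleep deprivation was 0.0368 (unadjusted, with the gene chosen with earlier results known). The number of probe sets past the threshold moved by over 1.5 times in several settings. For sleep deprivation in the knockout it was 23, and 39 with a trended prior, 43 with array weights, 35 without dim probe sets, 7 with 1 symbol alone, 12 with its own arrays, 10 with the block and 3 and 46 at thresholds of 0.01 and 0.1. Averaged over genotypes it was 23, and 39, 37, 39 and 8 in the first 4 of these, 14 with median centring, 9 with the block and 10 and 43 at the 2 thresholds. In wild type it was 0, and 2 with a trended prior, without dim probe sets or at a threshold of 0.1, and 1 with the block. For genotype after sleep deprivation it was 147, and 28, 36, 70, 23 and 338 with 1 symbol alone, its own arrays, the block and both thresholds. For the interaction it was 6, and 0 with 1 symbol alone and 2 at 0.01. On leaving out each array these counts ran from 6 to 33, 14 to 29, 0 to 3, 67 to 298 and 2 to 41 in the same order. The causes of these moves were not tested beyond the fewer rows, arrays or thresholds that define a setting.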
